A study of Homo sapiens with 8 samples.

Results

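The miR-15/16 family was followed through 7 mature microRNA (miRNA) arms in human embryonic stem cells of the H1 line, an established cell line, that differ in Dicer. The arms are miR-15a-5p, miR-15a-3p, miR-15b-5p, miR-15b-3p, miR-16-5p, miR-16-1-3p and miR-16-2-3p. They were taken by name from the deposited table, and all 7 are among its 594 miRNAs and passed the filter on low values. The small-RNA libraries came from 4 genotypes with 2 biologically independent libraries each. These were wild-type H1 cells, cells homozygous for the Dicer-S1344L substitution, cells hemizygous for Dicer-S1344L, and Dicer-null cells. The series description says that the homozygous and hemizygous lines were engineered with CRISPR-Cas9 to study a Dicer hotspot mutation found in cancer. The deposited headers code the homozygous cells as pmpm, the hemizygous cells as pmfs and the null cells as fsfs. The hemizygous code thus shares a part with each of the others, but the sources used here do not explain the codes. Nor do they say whether each line is 1 clone, what change the other allele of the hemizygous cells carries, or how the null allele was made.

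Dicer cleaves miRNA precursors, which fold into hairpins, and leaves a short duplex, from which the 5p strand (from the 5′ side of the hairpin) or the 3p strand (from the 3′ side) enters an Argonaute protein. Its RNase IIIb centre makes the cut on the 5p side and its RNase IIIa centre makes the cut on the 3p side. The strand that is mostly kept is the guide and its partner is the passenger. The miR-15/16 guides are the 5p strands, and they are known for restraining the G1 phase of the cell cycle through cyclin messages and for lowering BCL2, an inhibitor of cell death. The human genome holds these hairpins as a pair of clusters, each with 1 miR-15 and 1 miR-16 hairpin.

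The mature sequences show which arms share targets in principle, because bases 2 to 8, the seed, carry most of the target recognition. They are RefSeq sequences (GRCh38.p14), written 5′ to 3′ with the seed in capitals.
miR-15a-5p: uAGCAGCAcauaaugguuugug
miR-15b-5p: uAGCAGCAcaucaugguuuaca
miR-16-5p: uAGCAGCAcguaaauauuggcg
miR-15a-3p: cAGGCCAUauugugcugccuca
miR-15b-3p: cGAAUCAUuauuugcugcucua
miR-16-1-3p: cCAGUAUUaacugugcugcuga
miR-16-2-3p: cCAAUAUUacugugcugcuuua
All 7 arms are 22 bases long. The 5p arms, 3 in all, have the same seed, AGCAGCA, which miR-195-5p, miR-424-5p and miR-497-5p also carry among the miRNAs measured here. Counted from 1 at the 5′ end, miR-15a-5p and miR-15b-5p are identical at 18 of 22 positions and for their first 11 bases, and they differ by A12C, G20A, U21C and G22A, with the miR-15a-5p base first. miR-16-5p is identical to miR-15a-5p at 16 positions and to miR-15b-5p at 14. The 3p arms, 4 in all, have 4 different seeds, and 0 other measured miRNAs with a RefSeq sequence share any of them. The 3p arms of the miR-16 loci, miR-16-1-3p and miR-16-2-3p, differ inside the seed by G4A and are identical at 10 of 22 positions without gaps. All 5p arms of the family start with U and all 3p arms with C.

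The hairpins are shown because both arms of each are compared below, and because the miR-16 loci make the same 5p strand from different hairpins. The mature arms are in capitals and the lower-case bases between them are the loop side that Dicer removes.
MIR15A: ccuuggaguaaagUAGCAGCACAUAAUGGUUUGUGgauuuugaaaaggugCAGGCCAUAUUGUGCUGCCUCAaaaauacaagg
MIR16-1: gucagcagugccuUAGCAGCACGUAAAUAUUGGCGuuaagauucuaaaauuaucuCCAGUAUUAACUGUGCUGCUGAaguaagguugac
MIR15B: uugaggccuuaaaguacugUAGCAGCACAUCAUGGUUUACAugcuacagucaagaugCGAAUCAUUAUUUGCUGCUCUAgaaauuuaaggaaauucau
MIR16-2: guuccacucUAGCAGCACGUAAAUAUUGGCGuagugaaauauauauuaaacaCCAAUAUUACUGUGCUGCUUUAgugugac
MIR15A lies at chr13:50049119-50049201 and MIR16-1 at chr13:50048973-50049061, both on the minus strand (GRCh38), 57 bases apart. Both sit in introns of all 6 transcripts of the non-coding gene DLEU2 that span them in the GENCODE annotation. MIR15B lies at chr3:160404588-160404685 and MIR16-2 at chr3:160404745-160404825, both on the plus strand and 59 bases apart. These sit in introns of all 13 spanning transcripts of SMC4, which encodes a condensin subunit. The bases between the arms number 15 in MIR15A, 16 in MIR15B, 20 in MIR16-1 and 21 in MIR16-2, against a median of 16 over 271 hairpins with a measured arm. Because the miR-16-5p strand is the same from both loci, its reads cannot be split between them, whereas miR-16-1-3p and miR-16-2-3p report each locus.

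Levels are given as RPM, reads per 1000000 of the denominator the authors used, with the 0.5 of a read that was added to each count. The libraries held between 137655 (null) and 2725756 (wild type) miRNA reads, and 1 read is worth between 0.715 and 1.33 RPM. miRNA reads made up 2.09 to 2.43 times the denominator in the wild-type and homozygous libraries and in hemizygous replicate 2, 0.729 times in hemizygous replicate 1, and 0.118 and 0.183 times in the null libraries. Hemizygous replicate 1 therefore stood apart from its partner at the level of all miRNAs, and the members' values that rest on it are also given without it where a call or a size turned on it. A fit that leaves out a library keeps only 1 in that genotype. Calls for that genotype then rest on the spread of the other genotypes. All 8 listed stem cell miRNAs (the miR-302, miR-367 and miR-371 to 373 arms) were measured and held between 38.0% and 52.3% of the miRNA reads of a library. The 11 measured of 14 listed markers of neural, muscle, blood, endothelial, fibroblast and liver cells held between 0.59% and 1.84%, led by the neural miR-124-3p, and 2 of the 11 were at 0 reads in each null library. In bulk libraries, fewer cells that make a miRNA and less of it per cell cannot be told apart.

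In wild-type cells the reads of the family came almost wholly from its 5p arms, with 2.41% and 3.4% from the 3p arms. miR-16-5p had 23002 and 23656 RPM, which ranks its mean 15th among the 594 miRNAs. miR-15b-5p had 9188 and 9307 RPM and miR-15a-5p 7211 and 6620 RPM. The 5p arms thus ordered as miR-16-5p, miR-15b-5p and miR-15a-5p, with no overlap between neighbours.

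The wild-type 3p arms lay far lower. miR-15b-3p had 551 and 753 RPM and miR-16-2-3p 289 and 496 RPM, and the nearest libraries of these neighbours were separated by less than the SD of miR-15b-3p (143 RPM). miR-15a-3p had 115 and 123 RPM. The lowest was miR-16-1-3p with 21.4 and 24.4 RPM, which is 27 and 28 reads. The ranks of the 3p means were 221 (miR-15b-3p), 256 (miR-16-2-3p), 370 (miR-15a-3p) and 503 (miR-16-1-3p).

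**Figure D1:**
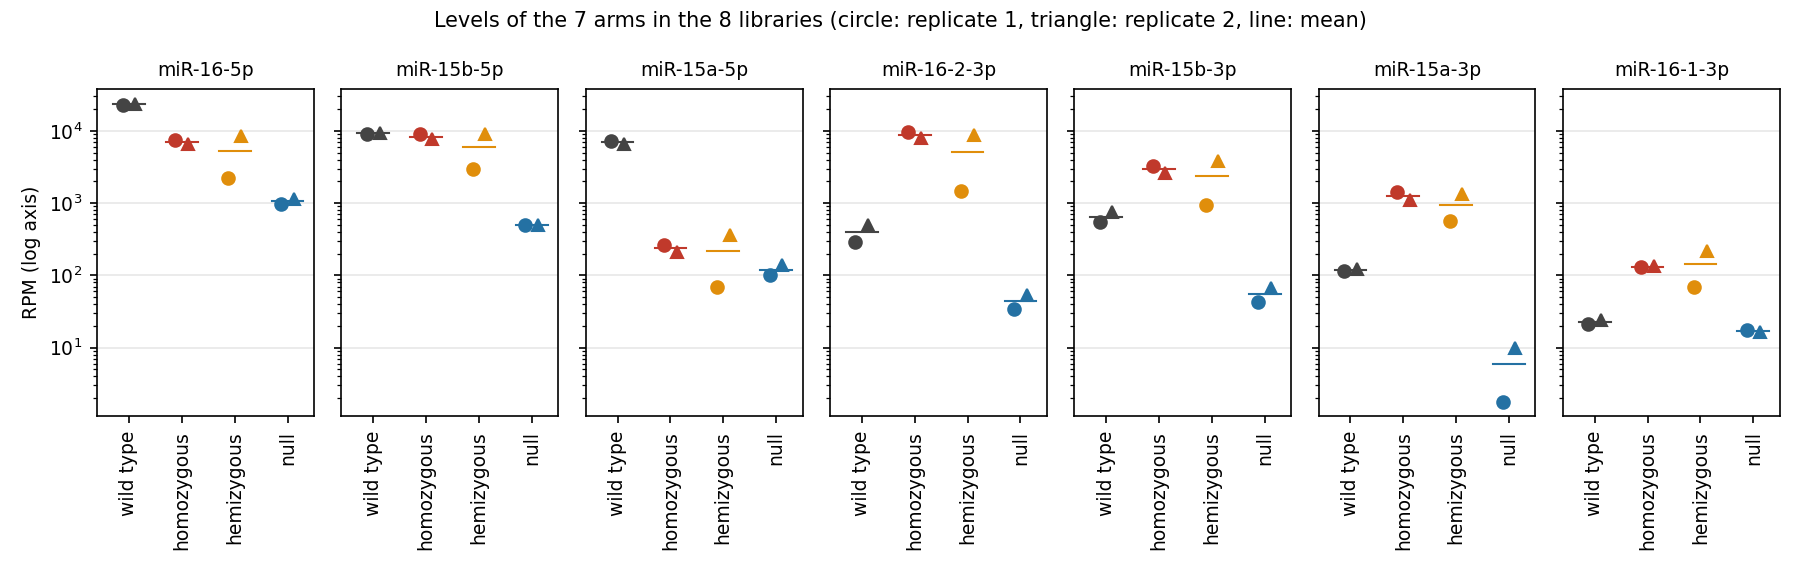
RPM of each of the 7 arms (log axis) in the 8 libraries, with circles for replicate 1, triangles for replicate 2 and a line at the group mean. In homozygous cells miR-15a-5p sits near 240 RPM against 6916 RPM in wild-type cells, miR-15b-5p stays near its wild-type level, and miR-16-2-3p rises from 393 to 8735 RPM; hemizygous replicate 1 lies below replicate 2 for every arm.

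The first question was what homozygous Dicer-S1344L does to the 5p guides of the family. The 3 guides, which share a seed, did not move alike. miR-15a-5p fell 28.9-fold, while miR-15b-5p had nearly its wild-type level and miR-16-5p lay between them. In the homozygous libraries miR-15a-5p had 266 and 213 RPM, far below both wild-type libraries, and its log2 fold change was -4.85 ± 0.93 (SE, n = 2 libraries a group; limma, Benjamini-Hochberg adjusted p = 1.4e-05). This fall ranked 14th from the bottom among 227 5p arms and passed in all 20 alternatives tried.

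miR-16-5p had 7576 and 6687 RPM in homozygous cells, below both wild-type libraries. Its log2 fold change of -1.71 ± 0.82 did not pass (limma adjusted p = 0.1). It passed in 7 of the 20 alternatives, among them all 4 other scalings and the fits without either hemizygous library. miR-15b-5p had 9022 and 7695 RPM, and its log2 fold change was -0.15 ± 0.84, with a 95% interval from -1.79 to 1.49 (limma adjusted p = 0.936). That value took the other sign under median-ratio (0.04), quantile (0.03) and upper-quartile scaling (0.75, limma adjusted p = 0.0489). The last of these moved the median of all miRNAs from -0.04 to 0.82, so that miR-15b-5p lay close to that median under both scalings.

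Against the 227 measured 5p arms, whose median log2 change was -2.25, miR-15a-5p lay well below and miR-15b-5p well above, and miR-16-5p was 96th from the top. The difference between the guides can be read within each library, where scaling has no part. There were 1.27 and 1.41 reads of miR-15b-5p per read of miR-15a-5p in wild-type cells, and 33.9 and 36.2 in homozygous cells. The groups did not overlap, and their exact permutation p of 0.333 is the smallest that 2 libraries against 2 can give.

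The 3p passengers moved the other way. Of the 4 3p arms, 3 rose in homozygous cells and the other, miR-15b-3p, was higher in both libraries without passing. miR-16-2-3p, the passenger of the chromosome 3 miR-16 hairpin, had 9555 and 7916 RPM against 289 and 496 in wild-type cells. Its log2 fold change of 4.52 ± 0.90 (22.9-fold, limma adjusted p = 2.3e-05) ranked first among 300 3p arms and passed in all 20 alternatives. Its libraries overlapped those of miR-15b-5p, and it ranked 40th among all miRNAs in homozygous cells.

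miR-15a-3p, the passenger of the strand that fell, had 1408 and 1099 RPM and rose 10.4-fold (log2 3.38 ± 0.97, limma adjusted p = 0.00336). miR-16-1-3p, the passenger of the chromosome 13 miR-16 hairpin, had 129 and 135 RPM and rose 5.57-fold (log2 2.48 ± 1.00, limma adjusted p = 0.0428). miR-15b-3p had 3232 and 2636 RPM, with a log2 fold change of 2.18 ± 0.91 (limma adjusted p = 0.0526). All 4 passengers were higher in both homozygous libraries than in both wild-type libraries. With 2 libraries a group this says little, since most of the other listed miRNAs did not overlap between these genotypes either. Among these were miR-193b-3p (log2 0.21) and miR-365a-3p (0.43), which were not called. The share of all miRNAs that separate in this way is not given here.

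The order of the levels in homozygous cells was thus mixed between the arms. It ran from miR-16-2-3p (8735 ± 1159 RPM, SD, n = 2) over miR-15b-5p (8358 ± 938), miR-16-5p (7132 ± 628), miR-15b-3p (2934 ± 422), miR-15a-3p (1254 ± 218) and miR-15a-5p (240 ± 37.5) to miR-16-1-3p (132 ± 4.63). The ranges of miR-16-2-3p and miR-15b-5p overlapped, and those of the later neighbours did not. Within each library miR-16-2-3p was above miR-15b-5p (9555 against 9022 and 7916 against 7695 RPM).

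The calls of miR-15a-3p and miR-16-1-3p were lost when any 1 of the wild-type and homozygous libraries was left out, with log2 changes of 3.2 to 3.56 and 2.39 to 2.57, and that of miR-16-1-3p also without either null library. miR-15b-3p passed in 12 of the 20 alternatives. In all, 4 of 7 members passed in homozygous cells, 3 of them higher and 1 lower, and 6 passed without either hemizygous library, which share the estimate of spread. Over all 594 miRNAs, 9.93% (59) were called higher and 22.2% (132) lower. These counts also went up, to 103 higher and 185 lower without hemizygous replicate 1 and to 101 and 184 without replicate 2. The median 3p arm had a log2 change of 0.68, and the median of the 4 members' was 2.93.

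**Figure D2:**
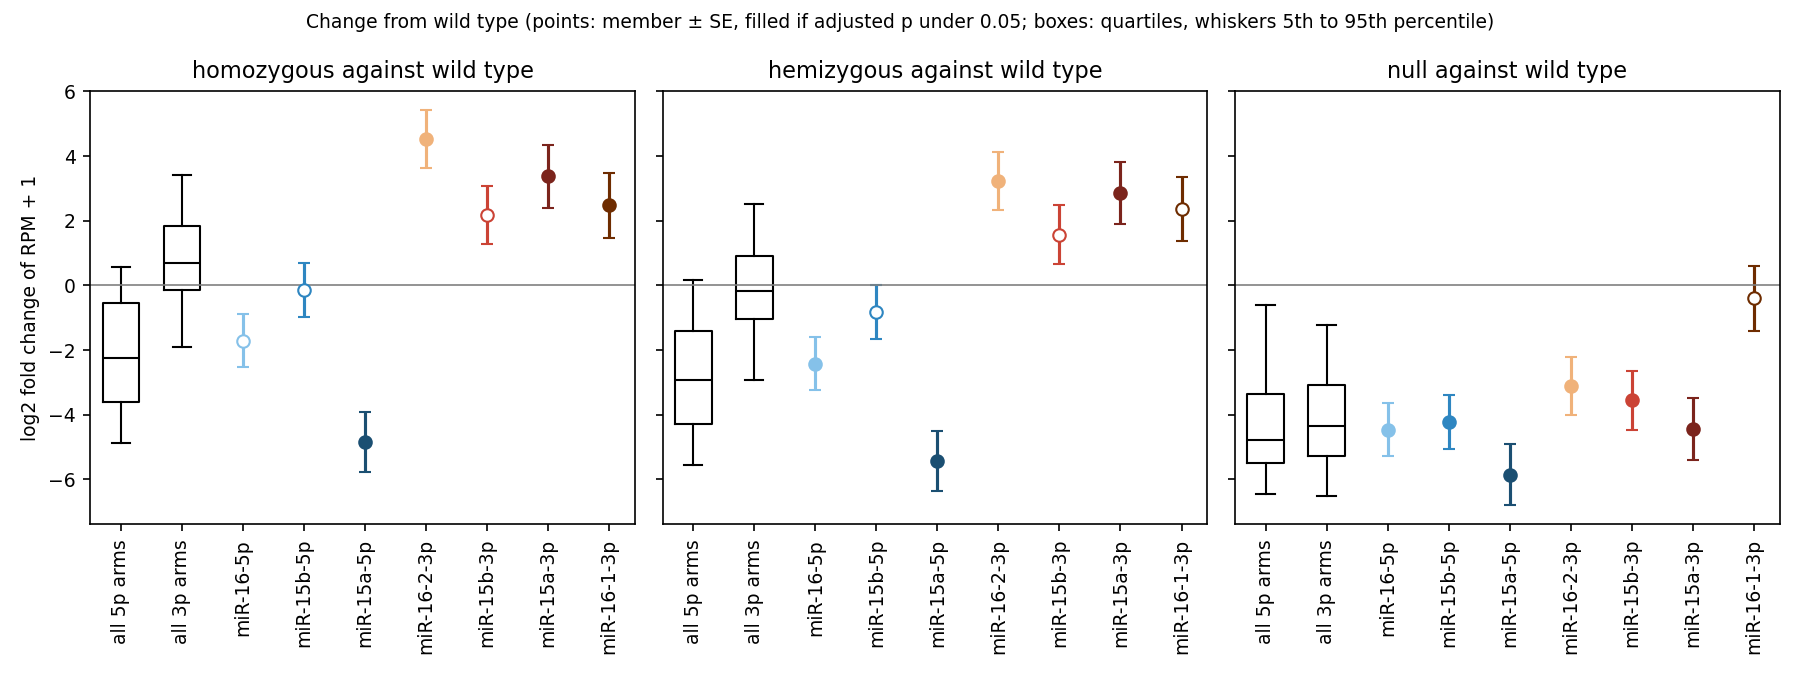
Log2 fold change of RPM + 1 from wild type in homozygous, hemizygous and null cells for each member (points with SE, filled where limma's adjusted p was under 0.05), beside boxes for all 5p and all 3p arms (quartiles, with whiskers at the 5th and 95th percentiles). miR-15a-5p and the 4 passengers part in the homozygous and hemizygous panels. The null panel holds for the deposited scaling, since 4 of the 7 members or more took the other sign under upper-quartile, quantile and median-ratio scaling, and 3 when scaled to miRNA reads.

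Setting the 3p arm against the 5p arm of the same hairpin removes the scaling of the library from the shares of reads. In the fitted ratios scaling enters only through the 1 RPM added to each arm. All 3 family hairpins shifted toward the 3p arm in homozygous cells, as did 78.7% of the 202 hairpins with both arms measured. In miR-15a the 3p arm went from a trace to the main product. It made up 1.56% and 1.81% of the reads of the hairpin in wild-type cells and 84.1% and 83.8% in homozygous cells. In miR-16, with the 3p arms of both loci summed, the 3p share went from 1.33% and 2.15% to 56.1% and 54.6%. In miR-15b it went from 5.65% and 7.48% to 26.4% and 25.5%, so that miR-15b-5p stayed the main strand. The widest 95% Wilson interval among these libraries, which covers counting error only, was that of miR-15a in homozygous replicate 2, from 81.5% to 85.8%.

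The log2 change of the 3p over 5p ratio was 8.23 ± 0.58 in miR-15a (limma adjusted p = 2.39e-08), 6.17 ± 0.51 in miR-16 (8.87e-08) and 2.33 ± 0.50 in miR-15b (0.000673). The median over the 202 hairpins was 3.31. miR-15a had the second largest shift of all, miR-16 ranked 25th and miR-15b 130th. The shifts of all 3 passed in every alternative tried. With the miR-16 loci kept apart, the ratio to the shared miR-16-5p changed by 6.23 ± 0.51 for miR-16-2-3p and by 4.19 ± 0.48 for miR-16-1-3p. Because the shared strand is in both ratios, the difference between the loci is that between their passengers. There were 13.7 and 20.7 reads of miR-16-2-3p per read of miR-16-1-3p in wild-type cells and 74.5 and 58.8 in homozygous cells, without overlap.

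**Figure D3:**
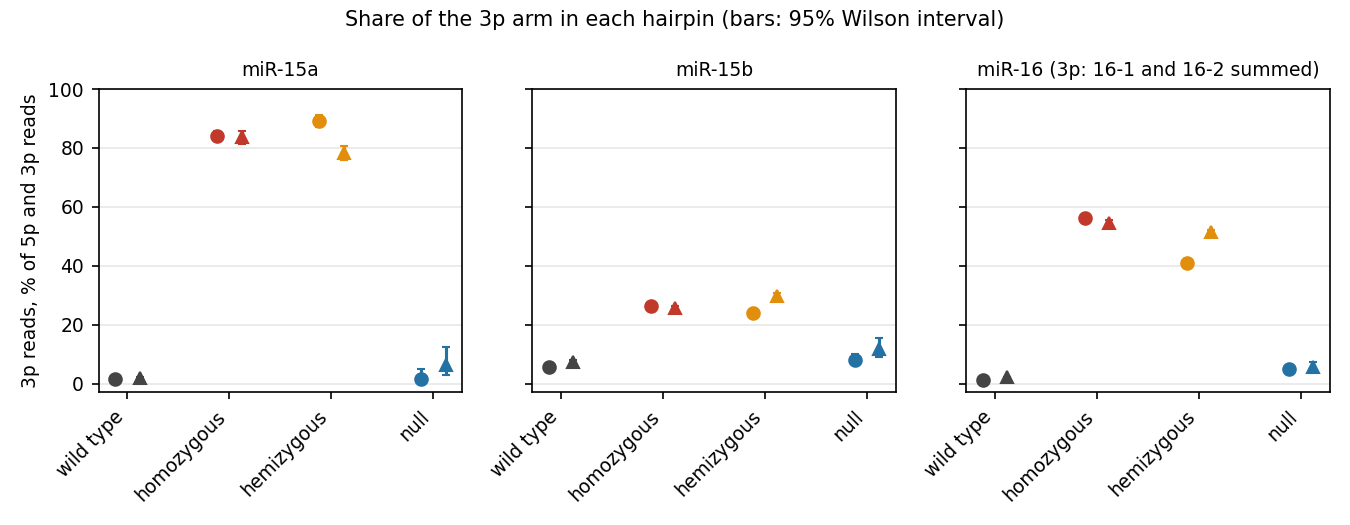
Share of 3p reads among the 5p and 3p reads of each family hairpin, in percent, by library (circle for replicate 1, triangle for replicate 2, bars for the 95% Wilson interval). Homozygous and hemizygous libraries lie between 78.3% and 89.2% for miR-15a, between 40.8% and 56.1% for miR-16 and between 23.9% and 29.9% for miR-15b, and all wild-type libraries lie under 8%.

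**Figure D4:**
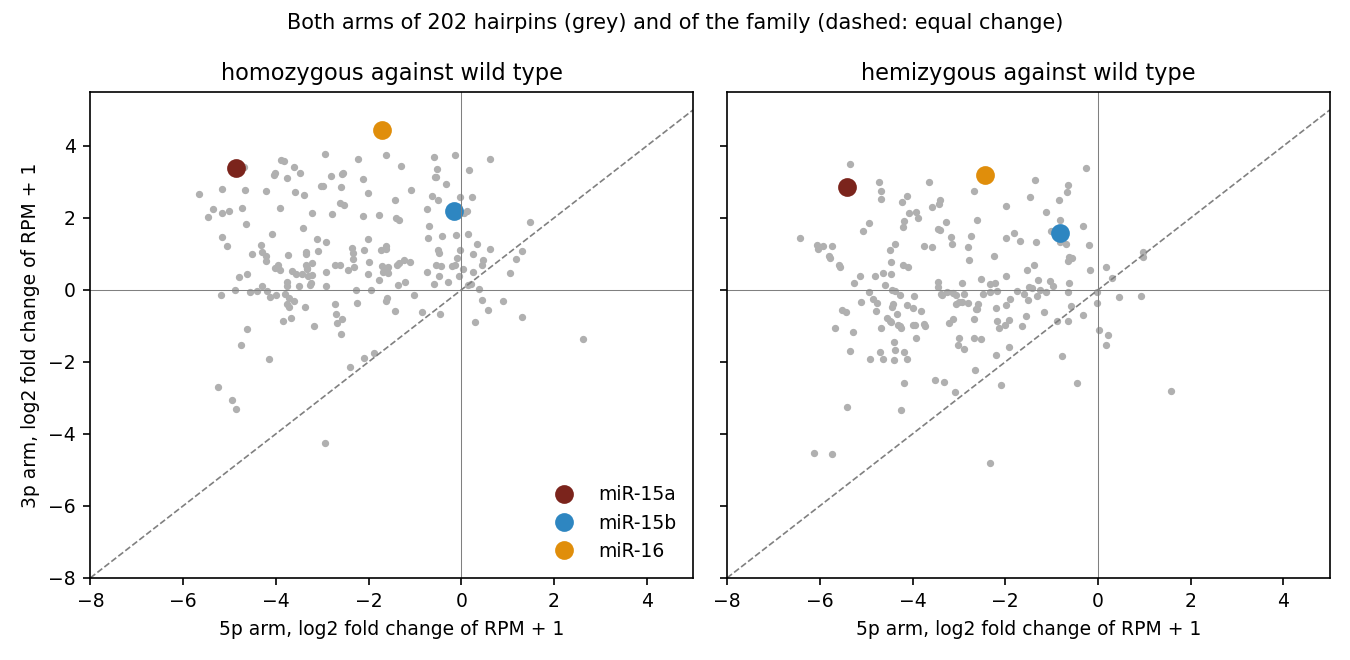
Log2 fold change of the 3p arm against that of the 5p arm for 202 hairpins (grey) and the family hairpins (coloured) in homozygous and hemizygous cells, with a dashed line where both arms change alike. miR-15a combines a fall of its 5p arm (-4.85) with a gain of its 3p arm (3.38) in homozygous cells, miR-15b lies near 0 for its 5p arm (-0.15), which takes the other sign under 3 other scalings, and miR-16 has the highest 3p change (4.45, loci summed).

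Summed over its members, the family lost 5p and gained 3p reads in homozygous cells. The summed 5p arms, which share 1 seed, had 39401 and 39584 RPM in wild-type cells and 16864 and 14595 in homozygous cells, 0.398 of the wild-type mean. The summed 3p arms went from 976 and 1396 to 14324 and 11786 RPM, 11.0 times the wild-type mean. All 7 arms together were 1.93% and 1.76% of the miRNA reads in wild-type cells and 1.29% and 1.21% in homozygous cells. None of these sums overlapped between the groups, and the smallest exact permutation p this design allows is 0.333.

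Among the summed 5p arms, miR-15b-5p went from 23.4% ± 0.137 (SD, n = 2) in wild-type cells to 53.1% ± 0.549 in homozygous cells and became the leading guide. miR-16-5p went from 59.1% ± 0.979 to 45.4% ± 0.633. miR-15a-5p went from 17.5% ± 1.12 to 1.52% ± 0.0838. The order of the first pair was reversed, with 2.5 and 2.54 reads of miR-16-5p per read of miR-15b-5p in wild-type cells and 0.84 and 0.869 in homozygous cells. Among the summed 3p arms, miR-16-2-3p went from 32.6% ± 4.16 to 66.9% ± 0.325 and miR-15b-3p from 55.2% ± 1.75 to 22.5% ± 0.143.

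**Figure D5:**
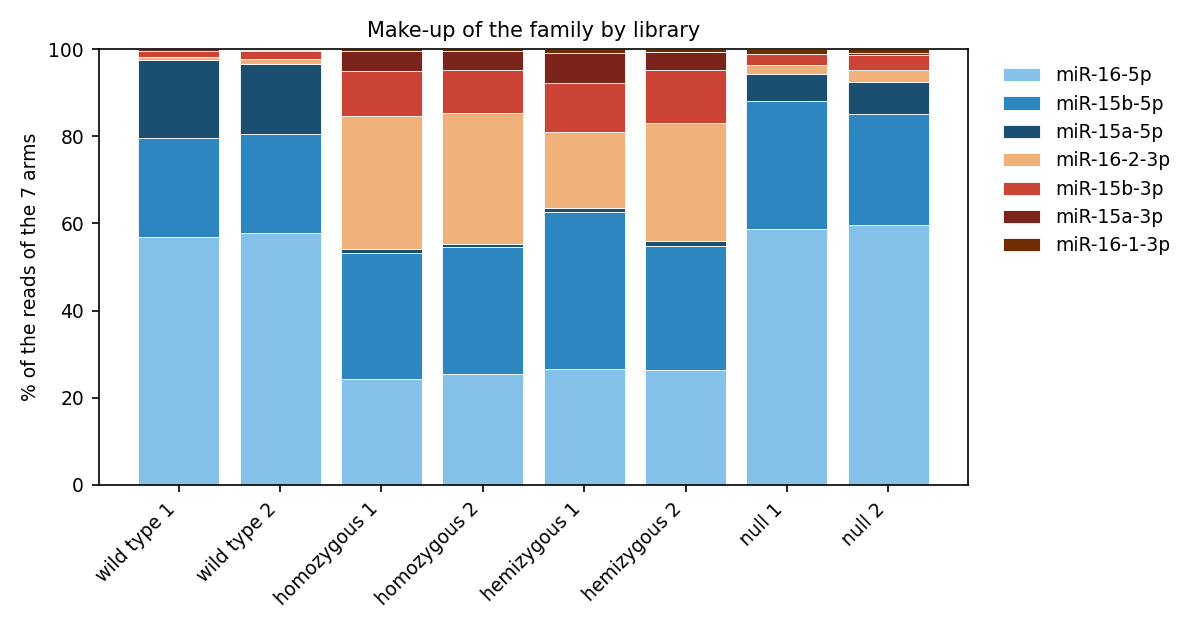
Share of each arm among the reads of the 7 arms, in percent, by library. The 3p arms (warm colours) hold 2.41% and 3.4% in wild-type, 45.9% and 44.7% in homozygous, 36.5% and 44.1% in hemizygous and 5.72% and 7.54% in null libraries.

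In hemizygous cells, the other Dicer-S1344L genotype, 4 members passed, with a wide spread between the libraries. miR-15a-5p and miR-16-5p fell, miR-16-2-3p and miR-15a-3p rose, and the other 3 members did not pass. The comparison shares its wild-type libraries with the one above. miR-15a-5p had 69.6 and 367 RPM, both below the wild-type libraries (log2 -5.42 ± 0.93, limma adjusted p = 3.35e-07), and its call held in all 20 alternatives. miR-16-5p had 2216 and 8462 RPM (log2 -2.43 ± 0.82, limma adjusted p = 0.012). miR-15b-5p had 3001 and 9097 RPM, the second of which is close to the wild-type libraries. Its log2 value of -0.82 ± 0.84 (limma adjusted p = 0.511) became -0.02 without hemizygous replicate 1, -1.62 without replicate 2 (limma adjusted p = 0.00348), and 1.00, 0.29 and 0.29 under upper-quartile, median-ratio and quantile scaling.

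The hemizygous passengers were higher than in wild-type cells. miR-16-2-3p had 1458 and 8721 RPM (log2 3.23 ± 0.90, limma adjusted p = 0.00183) and miR-15a-3p 572 and 1322 RPM (2.86 ± 0.97, 0.0125). miR-16-1-3p had 68.9 and 215 RPM (2.36 ± 1.00, 0.0529) and miR-15b-3p 942 and 3872 RPM (1.57 ± 0.91, 0.183). miR-16-1-3p passed in 11 of the 20 alternatives and miR-15b-3p in 5. Each passenger was higher in both hemizygous than in both wild-type libraries. With 2 libraries a group this says little by itself, and the share of all miRNAs that separate in this way is not given here.

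The 4 members called, 2 higher and 2 lower, stand beside a background in which 4.04% of all miRNAs were called higher and 30.6% lower. Without hemizygous replicate 1, which leaves 1 hemizygous library, miR-15a-5p was at -4.23, miR-16-5p at -1.46, miR-16-2-3p at 4.52, miR-15a-3p at 3.47, miR-16-1-3p at 3.18 and miR-15b-3p at 2.59. In that fit the median of all 594 miRNAs was -0.0, against -0.89 with both hemizygous libraries. Fitting only the 4 libraries compared, or leaving out wild-type replicate 1, left 1 call, that of miR-15a-5p. Leaving out wild-type replicate 2 or either homozygous library left 2, those of miR-15a-5p and miR-16-2-3p.

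By mean level, hemizygous cells ordered as miR-15b-5p (6049 ± 4311 RPM, SD, n = 2), miR-16-5p (5339 ± 4417), miR-16-2-3p (5089 ± 5136), miR-15b-3p (2407 ± 2072), miR-15a-3p (947 ± 530), miR-15a-5p (218 ± 210) and miR-16-1-3p (142 ± 103). Across the libraries the ranges of neighbours in this order overlapped, except between miR-15a-3p and miR-15a-5p. Within each library the order was the same, except that miR-16-2-3p lay above miR-16-5p in replicate 2. In replicate 1 miR-15a-5p and miR-16-1-3p were nearly equal (95 and 94 reads).

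Within the hairpins the hemizygous libraries were closer to each other. The 3p share was 89.2% and 78.3% in miR-15a, 40.8% and 51.4% in miR-16, and 23.9% and 29.9% in miR-15b. All 3 hairpins shifted toward the 3p arm, with log2 ratio changes of 8.29 ± 0.58, 5.63 ± 0.51 and 2.39 ± 0.50 (limma adjusted p = 3.28e-08, 2.32e-07 and 0.000594), and 76.7% of all hairpins shifted that way. Without hemizygous replicate 1 these changes were 7.70, 5.93 and 2.61, and all 3 passed. miR-15a again had the second largest shift of 202. The shares among the summed 5p arms were 53.8% ± 4.26 (SD, n = 2) for miR-15b-5p, 44.6% ± 3.74 for miR-16-5p and 1.68% ± 0.518 for miR-15a-5p.

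Set directly against each other, hemizygous and homozygous cells gave 0 called members by limma, with log2 values from -1.29 (miR-16-2-3p) to -0.11 (miR-16-1-3p). The 95% intervals reached from -3.05 to 0.48 for miR-16-2-3p and from -2.08 to 1.85 for miR-16-1-3p, and these include differences of several fold. None of the 7 passed at an unadjusted p under 0.05 either. Of all miRNAs 0% were called, with 7 of 594 at an unadjusted p under 0.05 and 0 calls with voom weights. Without hemizygous replicate 1, miR-16-2-3p was at 0.00 and miR-16-1-3p at 0.70, and miR-16-1-3p was also positive under each of the other scalings (0.63 to 0.80). Without hemizygous replicate 2, 5 of the 7 members passed as lower in hemizygous cells, miR-16-2-3p by -2.58, among 429 of all 594 miRNAs called lower, with a median of -1.81. The ratio changes between these genotypes were 0.06 ± 0.58 in miR-15a, 0.06 ± 0.50 in miR-15b and -0.54 ± 0.51 in miR-16, and 0% of all hairpins passed.

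Dicer-null cells served as the background that is left without the enzyme. All members but miR-16-1-3p fell on the deposited scaling, among 87.2% of all miRNAs called lower and 1.35% called higher. miR-16-5p had 976 and 1147 RPM, miR-15b-5p 491 and 493 RPM and miR-15a-5p 101 and 140 RPM, with log2 changes of -4.46 ± 0.82, -4.23 ± 0.84 and -5.85 ± 0.93 (limma adjusted p = 1.89e-07, 1.09e-06 and 2.92e-09). miR-15b-3p had 43.2 and 67.2 RPM, miR-16-2-3p 33.9 and 53.9 RPM, and miR-15a-3p 1.79 and 9.98 RPM, which is 2 and 7 reads. The guides kept their wild-type order, and miR-15b-3p and miR-16-2-3p overlapped in range, with miR-15b-3p higher in each library.

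miR-16-1-3p was the exception among the members. It had 17.5 and 16.6 RPM (24 and 12 reads) in null cells against 21.4 and 24.4 in wild-type cells, a log2 change of -0.40 ± 1.00 (limma adjusted p = 0.699). Its ratio to miR-16-5p was 4.06 ± 0.48 higher on the log2 scale (limma adjusted p = 3.17e-05), the 9th largest of 211 ratios with loci kept apart, where the median was 0.34. There were 1.96 and 3.33 reads of miR-16-2-3p per read of miR-16-1-3p in null cells, below both wild-type libraries.

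The null values depend on the scaling, and the null libraries had few miRNA reads. Scaled to miRNA reads, the median of all miRNAs went from -4.49 to -0.84, and miR-15b-3p, miR-16-2-3p and miR-16-1-3p took the other sign (0.33, 0.76 and 3.37). miR-15a-5p was the only member that was lower and passed under all 4 other scalings, where its log2 change was as small as -0.86. Within the hairpins, scaling enters only through the 1 RPM added to each arm. There miR-16 shifted toward 3p by 1.74 ± 0.51 (limma adjusted p = 0.0127), and miR-15a (1.41 ± 0.58, 0.0561) and miR-15b (0.67 ± 0.50, 0.278) did not pass. The added RPM weighs most on miR-15a-3p, at 1.79 and 9.98 RPM, and miR-15a passed with 5 RPM added. Of all hairpins 30.2% shifted toward 3p and 18.8% toward 5p. The call of miR-16 was lost without wild-type replicate 1 (1.39) and in the fit of the 4 libraries compared. With 1436 and 913 reads of the miR-16 hairpin and 143 and 112 of miR-15a, the null shares are less precise than the others: the Wilson interval of the miR-15a 3p share in null replicate 2 ran from 3.06% to 12.3%.

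Read against this background, on the deposited scaling, 6 of 7 members were higher in homozygous than in null cells. Of all miRNAs 76.3% were called higher and 2.02% lower. Scaled to miRNA reads, 217 of 594 miRNAs were called higher and 183 lower. As a share of miRNA reads, miR-16-5p was lower in homozygous cells (0.312% and 0.307%) than in null cells (0.826% and 0.625%). The share of miR-16-1-3p was also lower (0.00528% and 0.00617% against 0.0145% and 0.00872%), and that of miR-15b-5p overlapped. miR-15a-3p (log2 7.81 ± 0.97), miR-16-2-3p (7.63 ± 0.90) and miR-15b-3p (5.73 ± 0.91) kept their calls in all alternatives (limma adjusted p = 5.36e-14, 3.21e-15 and 2.38e-09). The member that did not pass was miR-15a-5p (0.99 ± 0.93, limma adjusted p = 0.316), with 266 and 213 RPM against 101 and 140. It passed without either hemizygous library, and under the 4 other scalings it was lower in homozygous than in null cells, from -2.95 to -3.23. On the deposited scaling, hemizygous cells also had 6 of 7 members above the null cells. The exception was again miR-15a-5p, whose libraries overlapped those of the null cells. Hemizygous replicate 2 alone had 367 RPM of miR-15a-5p, above both null libraries. Without hemizygous replicate 1 that group is 1 library, and the median log2 change of all miRNAs was 3.97, against 2.89 with both. With both libraries, 63.8% of all miRNAs were called higher and 1.01% lower. Scaled to miRNA reads, 195 of 594 miRNAs were called higher and 188 lower. The share of miR-16-5p was lower in hemizygous cells (0.304% and 0.349%) than in null cells. These comparisons share the null libraries.

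The relatives of the family, miRNAs whose guide holds the AGCAGC hexamer near its 5′ end, give a comparison with other hairpins of like guide. Of 12 listed arms 9 were measured. In homozygous cells, with all 8 libraries fitted, 2 rose, 1 fell and 6 did not pass, beside the 9.93% of all miRNAs called higher and 22.2% called lower. The guides with the whole miR-15/16 seed did not pass. miR-195-5p had a log2 change of 0.35 ± 0.95, miR-497-5p of -0.33 ± 0.97 and miR-424-5p of -0.73 ± 0.88, which puts them near miR-15b-5p rather than miR-15a-5p. miR-503-5p, whose seed ends in G, went from 1328 and 1114 RPM to 100.0 and 65.5 RPM and fell by 3.89 ± 0.99 on the log2 scale (limma adjusted p = 0.000794). Its partner miR-503-3p went from 4.28 and 8.13 RPM to 100.0 and 69.1 RPM (3.60 ± 0.96, 0.00138).

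The other partner arms were higher as well. miR-497-3p rose by 2.95 ± 1.00 on the log2 scale (limma adjusted p = 0.0133) and miR-424-3p was at 2.26 ± 1.00 (0.0698). miR-103a-3p and miR-107 carry the hexamer 1 base nearer the 5′ end and are 3p guides, yet they were lower, at -1.93 ± 0.85 and -2.13 ± 0.99 (limma adjusted p = 0.0678 and 0.0847). They passed in hemizygous cells (-3.34 and -3.09, and -2.39 and -2.35 without hemizygous replicate 1), where 1 relative rose and 3 fell beside 4.04% and 30.6% of all miRNAs. Without that library 3 rose and 3 fell. In homozygous cells, leaving out hemizygous replicate 1 kept the sizes and narrowed the SE. miR-103a-3p was then at -1.93 ± 0.44, miR-107 at -2.13 ± 0.55 and miR-424-3p at 2.26 ± 0.65. Whether these relatives passed in homozygous cells thus depended on the estimate of spread, which both hemizygous libraries share. The fit without hemizygous replicate 2 is not given for the relatives. Whether the change is particular to replicate 1 was not tested. In null cells 8 of 9 fell, on the deposited scaling, as did 87.2% of all miRNAs.

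Other miRNAs known to restrain the cell cycle, listed apart from the family, were mostly 5p guides. Of 9 listed 7 were measured, and 5 fell in homozygous cells, 5 in hemizygous cells (also 5 without hemizygous replicate 1) and 7 in null cells. The 5 that fell in homozygous cells are 5p arms. Of all miRNAs 22.2%, 30.6% and 87.2% were called lower in these genotypes, and of all 227 measured 5p arms 111 in homozygous, 138 in hemizygous and 204 in null cells. In homozygous cells let-7a-5p fell by 5.35 ± 0.95 and miR-34a-5p by 5.17 ± 0.96 on the log2 scale (limma adjusted p = 3.82e-06 and 8.36e-06), as far as miR-15a-5p. The 3p guides miR-193b-3p (0.21 ± 0.83) and miR-365a-3p (0.43 ± 0.88) did not pass.

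The miRNAs with the closest profiles over the 8 libraries were found by the root mean square difference of log2(RPM + 1), each set to its wild-type mean, among 493 with at least 50 RPM in a group. miR-15a-5p was closest to miR-524-5p (0.26), miR-744-5p (0.33) and miR-542-5p (0.36). miR-15b-5p was closest to 3p strands, miR-519b-3p (0.13), miR-520b-3p (0.22) and miR-29a-3p (0.22), and miR-16-5p to miR-26a-5p (0.3), miR-96-5p (0.33) and miR-1304-3p (0.33). The closest family member to miR-15a-5p was miR-16-5p, at 2.28.

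The passengers were each closest to other 3p arms. These were miR-20b-3p (0.3), miR-219a-2-3p (0.41) and miR-125a-3p (0.44) for miR-15a-3p, and miR-582-3p (0.25), miR-31-3p (0.37) and miR-218-1-3p (0.4) for miR-15b-3p. For miR-16-2-3p they were miR-20a-3p (0.45), miR-30d-3p (0.55) and miR-450a-1-3p (0.65). The profiles closest to miR-16-1-3p lay farther off, with miR-135a-2-3p at 0.74, miR-597-3p at 0.78 and miR-503-3p at 0.8.

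The first base was the same in all 4 passengers, a C. Among 269 3p arms with a RefSeq sequence, 67 (24.9%) start with C, and in homozygous cells 19 of these were called higher and 5 lower, with a median log2 change of 1.16. Of those starting with U, 5 of 89 were called higher and 3 lower (median 0.52), of those with A 21 of 83 higher and 3 lower (0.67), and of those with G 4 of 30 higher and 0 lower (0.67), so the arms called higher were about as frequent with A as with C. The U start of the family's guides is shared by 85 of 203 5p arms (41.9%). Of these 45 were called lower, with a median of -2.41. Beside them stand 32 of 53 that start with C (median -2.93), 22 of 47 with A (-2.04) and 3 of 18 with G (-0.34). These counts include the members and are a description, since the arms of 1 hairpin and of repeated loci are not independent.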

How the data were processed

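Per the labels' protocols, small RNAs from total RNA with added spike-ins were linker-ligated, gel-selected and sequenced; the submitters' processing notes name cutadapt, limma and hg38. The sources used here give no aligner, counting method or scaling. The deposited table holds log2 RPM with 0.5 of a read added. Whole reads could be computed back (largest distance from a whole read 7.31e-09), and the deposited log2 values were turned back to RPM, the unit for which the tests had been planned.

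limma 3.58.1 (R 4.3.3) was fitted on log2(RPM + 1) over all 594 miRNAs with at least 5 RPM in 2 libraries, in 1 model of 4 groups and 8 libraries, with a variance trend; the tests were two-sided, and a Benjamini-Hochberg adjusted p under 0.05 counted as a call. The prior degrees of freedom were infinite, so miRNAs of 1 level share 1 spread. Fold changes are on the log2(RPM + 1) scale and understate those of low miRNAs; errors are SE for fold changes and SD for levels. The 3p over 5p ratios of 202 hairpins (16 with loci summed) were fitted with the same model, but in their main fit the prior degrees of freedom were finite. Sums and ratios were compared by exact permutation tests, two-sided. The scripts were tested on simulated data. The labels call the libraries biologically independent and do not say that replicate numbers pair them, so no pairing was used in the main fit.

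The alternatives were pseudocounts of 0.5 and 5 RPM, no filter and a filter of 50 RPM, 4 other scalings, a fit of the compared libraries, no trend, a replicate block, each library left out, and voom weights on the recovered reads, which was added after seeing the data. The members and lists were chosen with earlier results of these data known. All 7 members are named, with the 3 closest profiles of each, the measured relatives, and up to 4 values of the cell-cycle list. Sequences were matched by name to RefSeq for 533 of 594 miRNAs.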

Additional observations from a re-analysis of the deposited data

How the results depend on the processing

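Each member's change was computed under 20 alternatives. Calls over all 594 miRNAs also depended on the alternative. Upper-quartile scaling called 254 higher and 150 lower in homozygous cells, against 59 and 132 in the main fit. In hemizygous cells it called 255 and 153, against 24 and 182, and the fit of the 4 libraries compared called 1 and 108. Scaling to miRNA reads called 80 and 265 in null cells, against 8 and 518. In homozygous against wild-type cells the number of members called was 4, 7 under upper-quartile scaling and 2 to 6 with each library left out in turn; in hemizygous cells it was 4, 7 under upper-quartile scaling, 1 in the fit of the 4 libraries compared and 1 to 6 with each library left out. In null cells it was 6, all lower. Scaled to miRNA reads it was 3, with miR-15a-5p and miR-16-5p lower and the other member higher. Between hemizygous and homozygous cells it was 0, and 0 to 5 with each library left out, the 5 without hemizygous replicate 2. The family hairpins shifted in null cells numbered 1, but 2 with a pseudocount of 5 RPM or with the loci kept apart, 0 in the fit of the 4 libraries compared, and 0 to 2 with each library left out. The log2 change of the summed 5p arms in homozygous cells was -1.33, and -1.14 under median-ratio scaling. In null cells it was -4.56, and -0.66 scaled to miRNA reads and -0.13 under median-ratio scaling. The upper-quartile factors were 3.42 and 4.26 in wild-type, 2.23 and 1.86 in homozygous, and 0.0883 and 0.163 in null libraries. Divided by them, the sum was still lower in homozygous cells but took the other sign in null cells. Scaling also reversed single members. miR-15b-5p took 0.04, 0.75 and 0.03 in homozygous cells, and 0.29, 1.00 and 0.29 in hemizygous cells, under median-ratio, upper-quartile and quantile scaling. In null cells, scaling to miRNA reads gave 0.33 for miR-15b-3p, 3.37 for miR-16-1-3p and 0.76 for miR-16-2-3p. Median-ratio scaling gave 0.20 for miR-15b-5p, 0.85 for miR-15b-3p, 3.86 for miR-16-1-3p and 1.28 for miR-16-2-3p. Upper-quartile scaling gave 0.18 for miR-15a-3p, 0.76 for miR-15b-5p, 1.41 for miR-15b-3p, 0.53 for miR-16-5p, 4.36 for miR-16-1-3p and 1.84 for miR-16-2-3p. Quantile normalization gave 0.27 for miR-15b-5p, 1.21 for miR-15b-3p, 3.32 for miR-16-1-3p and 1.45 for miR-16-2-3p. Against the homozygous cells, miR-16-1-3p in hemizygous cells took 0.66 (miRNA reads), 0.80 (median-ratio), 0.80 (upper-quartile) and 0.63 (quantile), and -0.93 to 0.70 with each library left out. miR-16-2-3p ran from -2.58 to 0.00 and the hairpin ratios from -0.53 to 0.64 (miR-15a) and from -0.16 to 0.28 (miR-15b) with each library left out. miR-15a-5p in homozygous against null cells took -2.95, -3.23, -3.08 and -3.12 under the same 4 scalings. The cause of these moves was not tested. With a replicate block, 5 members were called in homozygous cells (miR-15b-3p was added, adjusted p = 0.039) and 5 in hemizygous cells (miR-16-1-3p was added, 0.0273), and no call was lost. The labels do not say that replicate numbers mark a shared source. The correlation of the difference between replicates 2 and 1 across miRNAs ran from -0.11 to 0.10 between genotypes, except 0.62 between wild-type and hemizygous cells. Depth limits the null values most, where miR-15a-3p rests on 2 and 7 reads.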
